A study of Homo sapiens with 18 samples.

Results

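Histone modification profiles were described at 10 genes of the BCL2 family, out of 20007 protein-coding genes of the annotation: BCL2, MCL1, BCL2L1 and BCL2A1, BAX and BAK1, and BCL2L11, BBC3, PMAIP1 and BID. The genes were chosen by name and not by their counts, though with earlier results of these data known. Cut&Tag, in which an antibody directs the Tn5 transposase to cut and tag DNA next to a histone mark, was performed in MOLM-13, a single human acute myeloid leukemia cell line that carries a KMT2A rearrangement. Cells received 100 nM PR-957 (ONX-0914), an inhibitor of the immunoproteasome subunit PSMB8, or the solvent DMSO, for 72 h by the labels, and the study's text gives a shorter time in a single place. For each of H3K4me3, H3K27ac, H3K4me1 and H3K27me3 there were 2 DMSO and 2 PR-957 libraries, 16 in all, and the IgG samples were not analysed here. Nothing in the labels says that replicates came from separate cultures, so the p-values measure only the spread between these libraries, which may be technical.

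BCL2 family proteins decide whether the outer mitochondrial membrane is permeabilized, the step that releases cytochrome c and starts the caspase cascade. Guardians (BCL2, MCL1, BCL-XL encoded by BCL2L1, and BFL-1 encoded by BCL2A1) hold back the effectors BAX and BAK1, and BH3-only proteins (BIM encoded by BCL2L11, PUMA encoded by BBC3, NOXA encoded by PMAIP1, and BID) report stress and tip that balance. Myeloid leukemia cells often depend on BCL2 or MCL1, which are drug targets in this disease. H3K4me3 marks active promoters, H3K27ac active promoters and enhancers, H3K4me1 enhancers and the flanks of promoters, and H3K27me3 repressed chromatin.

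The authors' files hold whole-number counts on a list of intervals for each mark, and for each gene and mark the interval with the most counts, averaged over the 4 libraries, was taken among those within 2 kb of any of its transcription start sites. Levels are given as CPM, counts scaled to the same TMM-corrected library total, and as CPM per kb of interval where genes are compared. Libraries held 9885836 to 14165777 counts in H3K27ac, 10032503 to 12047958 in H3K27me3, 15204186 to 30584219 in H3K4me1 and 30070119 to 44591150 in H3K4me3. H3K27ac was listed at the start site of 10 of 10 myeloid marker genes and of 4 of 15 markers of B, T, erythroid, epithelial and hepatic cells. H3K4me3 was listed at 9 of 10 and at 8 of 15.

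Promoter sequences from RefSeq (GRCh38.p14), covering 250 bases before to 50 bases after a gene's start, were found for 9 of the 10 genes. MCL1 was not matched. The 3 stretches below were chosen because BBC3 was the only gene of the 10 that passed the test in any mark, PMAIP1 has a GC-rich promoter with H3K4me3 and no H3K4me1 interval, and BCL2A1 has the weakest H3K4me3. Each is the part before the start that no annotated exon covers, 5′ to 3′ on the gene's strand, and the bases in capitals match, on either strand, the GC box GGGCGG, the CCAAT box, the TATA box TATAAA or the cyclic AMP response element (CRE) TGACGTCA. They lie at chr19:47232767-47232917 on the minus strand for BBC3, chr18:59899746-59899995 on the plus strand for PMAIP1 and chr15:79971197-79971446 on the minus strand for BCL2A1.
BBC3: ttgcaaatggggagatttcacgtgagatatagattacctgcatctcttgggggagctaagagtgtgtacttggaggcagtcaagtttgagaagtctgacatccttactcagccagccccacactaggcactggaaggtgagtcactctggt
PMAIP1: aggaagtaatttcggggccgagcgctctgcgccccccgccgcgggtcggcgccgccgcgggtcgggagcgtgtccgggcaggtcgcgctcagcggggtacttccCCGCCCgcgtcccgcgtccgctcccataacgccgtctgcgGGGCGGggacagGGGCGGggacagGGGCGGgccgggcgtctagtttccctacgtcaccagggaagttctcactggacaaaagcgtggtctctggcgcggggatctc
BCL2A1: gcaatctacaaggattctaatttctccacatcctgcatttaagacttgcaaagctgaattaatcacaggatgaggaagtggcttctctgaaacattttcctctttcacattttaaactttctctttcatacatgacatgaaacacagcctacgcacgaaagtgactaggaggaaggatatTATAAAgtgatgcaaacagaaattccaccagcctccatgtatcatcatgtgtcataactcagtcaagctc

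The PMAIP1 promoter held 71.3% G and C and 4 GC boxes in its 300 bases, and 59.2% of 15345 promoters held at least 1 GC box. The BCL2A1 promoter held 41.0% G and C (percentile 6.54 of all promoters), a CpG observed over expected ratio of 0.16 and a single TATAAA, a motif found in 9.63% of all promoters. The 300 bases of BBC3 held 48.0% G and C, no GC box and a single CCAAT that lies outside the printed stretch, while 36.6% of promoters held a CCAAT. Of the other genes, BCL2L11 (74.7% G and C, 3 GC boxes and 1 CCAAT), BAX (67.3%, 2 and 2) and BAK1 (58.7%, 2 and 2) held GC boxes and CCAAT together, and BCL2 (70.7%) held none of the motifs. BCL2L1 has a pair of RefSeq starts, of which the first held 52.0% G and C and 2 TATAAA matches and the second 61.3% and 1 GC box. BID has 5 RefSeq starts, whose promoters fall into 2 groups that overlap within but not between them, with 48.7% to 78.0% G and C and 0 to 4 GC boxes. None of the promoters of the 9 matched genes held a CRE, found in 2.64% of all promoters. The median promoter held 63.0% G and C.

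H3K4me3 was listed at all 10 genes, and at 63.9% of protein-coding genes. H3K27ac was listed at 9 of 10, all but BCL2A1, and at 60.4% of protein-coding genes. H3K4me1 was listed at 9 of 10, all but PMAIP1, and at 43.5%. H3K27me3 was listed at 0 of 10, and at 19.9%. Its nearest interval lay 4.88 kb upstream of the BBC3 start, 20.9 kb from that of BAX and 110 to 722 kb from those of the other 8 genes.

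Levels differed far more between the genes than between the treatments. Per kb, H3K4me3 was highest at BBC3 (mean of 4 libraries 10.1 CPM per kb, range 9.43 to 10.5) and BCL2L11 (9.66, 9.41 to 9.88), whose ranges overlap. PMAIP1 followed with 7.85 CPM per kb (7.59 to 8.05), apart from both neighbours. BCL2, BAX, MCL1, BCL2L1 and BID formed a run from 6.74 down to 4.55 CPM per kb in which each range overlaps the next. BAK1 stood below BID at 4.13 (3.91 to 4.26), and BCL2A1 far below at 0.701 (0.528 to 0.894), so that the highest gene held 14.4 times the H3K4me3 per kb of the lowest. Among the 12790 protein-coding genes with an H3K4me3 interval, the DMSO level of BBC3 was at percentile 97.6, BCL2L11 at 96.5, PMAIP1 at 88.9 and BCL2A1 at 1.65.

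**Figure D1:**
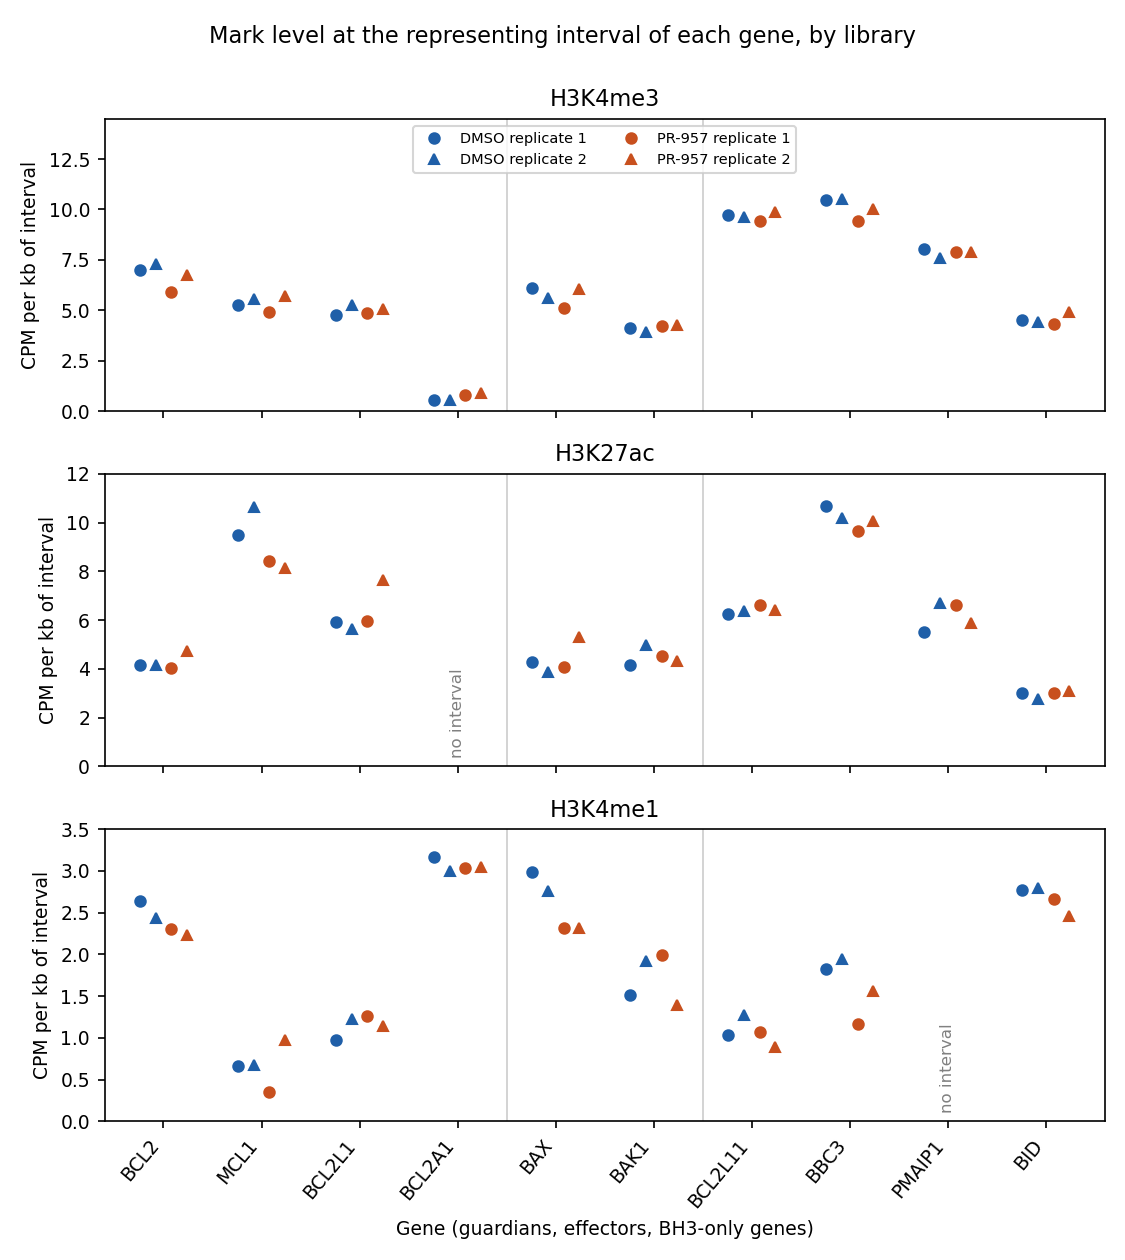
Level of 3 marks at the interval that represents each gene (vertical axis, CPM per kb of interval; horizontal axis, genes ordered as guardians, effectors and BH3-only genes), with 1 point per library: blue for DMSO, orange for PR-957, circles for replicate 1 and triangles for replicate 2. BBC3 and BCL2L11 lead in H3K4me3, BBC3 and MCL1 in H3K27ac and BCL2A1 in H3K4me1, while BCL2A1 is lowest in H3K4me3 at 0.528 to 0.894 CPM per kb.

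In H3K27ac the order was led by BBC3 (10.1 CPM per kb, 9.64 to 10.7) and MCL1 (9.17, 8.12 to 10.7), which overlap. Below them, BCL2L11, BCL2L1 and PMAIP1 lay at 6.41, 6.29 and 6.17 CPM per kb with overlapping ranges. BAK1, BAX and BCL2 followed at 4.49, 4.39 and 4.27, again overlapping, and BID was lowest at 2.96 (2.76 to 3.09). The ratio of the highest to the lowest was 3.43. The order of H3K4me1 was a different one, headed by BCL2A1 at 3.06 CPM per kb (3.00 to 3.16), apart from BID at 2.67. BID, BAX and BCL2 overlapped in turn down to 2.40, and BAK1, BBC3, BCL2L1, BCL2L11 and MCL1 overlapped in turn from 1.71 down to 0.663. The 2 genes at the top of H3K4me3, BBC3 and BCL2L11, thus held ranks 6 and 8 of 9 in H3K4me1, and the gene at the bottom of H3K4me3 ranked first. Widths differ between marks and genes (1.77 to 17.3 kb), and wide intervals average over their flanks. In H3K4me1 the BCL2 interval lies at an internal start far from the 5′ start, and the BAX interval also holds starts of FTL and GYS1. The BCL2L1 interval holds 1 of its 11 annotated starts, so the H3K4me1 order is not one of promoters alone.

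PR-957 was compared with DMSO by edgeR's quasi-likelihood test over all intervals of a mark. In H3K4me3, 0 of the 10 genes passed a false discovery rate of 0.05, where 0.226% of all intervals and 0.219% of the intervals that represent protein-coding genes did, and 1 gene had an unadjusted p under 0.05. In H3K27ac, 0 of 9 passed (0.238% of all intervals, 0.48% of genes), with 1 under an unadjusted 0.05. In H3K4me1, 1 of 9 passed, BBC3, which fell (1.94% of all intervals, 2.15% of genes in either direction and 1.45% of genes lower), while the unadjusted p was under 0.05 at 2 of them. The share of all genes under an unadjusted 0.05 is not given here, so the unadjusted counts cannot be set against it. By DESeq2, 0 of the genes passed in each of the 3 marks. It gave no adjusted p for BCL2, BCL2L1, BAX, BAK1, PMAIP1 and BID in H3K27ac or for BCL2A1 in H3K4me3, so these could not pass. An exact permutation test of 2 libraries against 2 cannot go below p = 0.333, so that calls rest on the variance model fitted across all intervals.

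The median log2 fold change of the genes was −0.01 in H3K4me3, 0.05 in H3K27ac and −0.12 in H3K4me1, beside −0.01, 0.00 and −0.08 over all genes with an interval in each mark. Both PR-957 libraries lay on one side of both DMSO libraries at 4 of 10 genes in H3K4me3, 4 of 9 in H3K27ac and 4 of 9 in H3K4me1. Over all intervals the share was 36.6%, 36.9% and 46.7%, so the genes lie close to the background. The 95% confidence interval of the fold change lay within 1.5-fold at 9 of 10 genes in H3K4me3 (all but BCL2A1), 8 of 9 in H3K27ac (all but BAX) and 6 of 9 in H3K4me1 (all but MCL1, BCL2L11 and BBC3). It lay within 2-fold at every gene in H3K27ac and H3K4me1. By sign alone, BBC3 was the only gene lower in every mark with an interval (3 marks). PMAIP1 was the only one higher in each (2 marks), and the other 8 had both signs. Apart from BBC3 in H3K4me1, none of these changes passed. The signs of PMAIP1 in both marks and of BBC3 in H3K27ac turned under some alternatives.

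**Figure D2:**
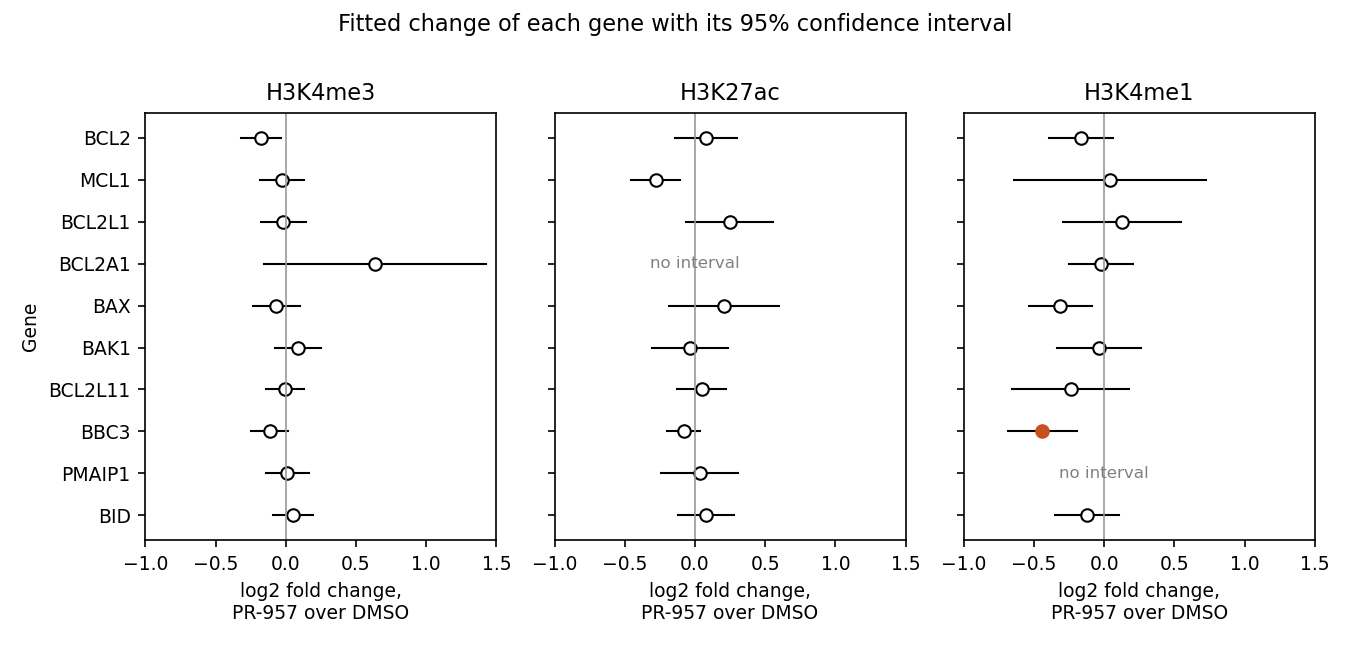
Fitted log2 fold change of PR-957 over DMSO (horizontal axis, 2 libraries per treatment) for each gene (vertical axis) in 3 marks, with the 95% confidence interval as a bar. Only BBC3 in H3K4me1 is filled in orange, for an adjusted p under 0.05, and the widest bar is that of BCL2A1 in H3K4me3, from −0.15 to 1.43.

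Among the guardians, BCL2 encodes the founding member of the family, which sequesters BH3-only proteins at mitochondria. Its H3K4me3 interval (chr18:63317007-63323628, over the 5′ start) held 46.4 and 48.2 CPM in DMSO and 39.2 and 44.7 CPM in PR-957. Both PR-957 libraries were below both DMSO libraries, with a log2 fold change of −0.17 ± 0.07 (SE) and an adjusted p of 0.509 in edgeR. H3K27ac over the same start was 28.8 and 28.8 CPM in DMSO and 27.8 and 32.6 CPM in PR-957, and the groups overlapped (log2 fold change 0.08 ± 0.11). The H3K4me1 interval that represents BCL2 (chr18:63134907-63146522) lies at an internal start 174 kb from the 5′ start, near the other end of this 197-kb gene, and held 30.6, 28.3, 26.7 and 25.9 CPM in the same order of libraries. These groups did not overlap, and the adjusted p was 0.493. At the 5′ start itself H3K4me1 was weaker, and the strongest interval there had a log2 fold change of −0.03 ± 0.22.

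MCL1 encodes a short-lived guardian that is rapidly degraded by the proteasome. H3K27ac at its promoter (chr1:150576750-150581791) was 47.8 and 53.7 CPM in DMSO and 42.5 and 41.0 CPM in PR-957. Every PR-957 library lay below every DMSO library, and the log2 fold change was −0.28 ± 0.09 (SE; 0.824-fold, 95% confidence interval 0.729 to 0.930), the smallest unadjusted p of the genes in H3K27ac (0.0018). It did not pass after adjustment over all intervals (adjusted p = 0.219, and 0.162 to 0.814 under the alternatives). The 4 nested intervals of this promoter gave log2 fold changes of −0.28 to −0.30, and they count the same fragments. A separate weaker interval, 3.52 kb downstream of the start, held 7.27 and 7.66 CPM in DMSO and 9.16 and 12.2 CPM in PR-957, the opposite order, with an adjusted p of 0.377. H3K4me3 at the promoter was 23.2 and 24.7 CPM in DMSO and 21.7 and 25.4 CPM in PR-957, and the groups overlapped. H3K4me1 rested on 15 to 62 counts per library there, too few to resolve a change (log2 fold change 0.04 ± 0.35).

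BCL2L1 encodes BCL-XL, a guardian with a long-lived protein. Its H3K27ac interval held 15.0 and 14.2 CPM in DMSO and 15.1 and 19.3 CPM in PR-957. The groups did not overlap, although DMSO replicate 1 and PR-957 replicate 1 were nearly equal, and the log2 fold change was 0.25 ± 0.16 with an adjusted p of 0.750. H3K4me3 was 23.2, 25.5, 23.5 and 24.5 CPM and H3K4me1 3.66, 4.60, 4.75 and 4.26 CPM in the order DMSO 1, DMSO 2, PR-957 1, PR-957 2, and both overlapped. A group of 4 nested H3K4me1 intervals 56.3 to 56.8 kb downstream of the start, near the end of the gene, had log2 fold changes of −0.44 to −0.52 and adjusted p-values of 0.216 to 0.274.

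BCL2A1 encodes BFL-1, a guardian expressed mainly in hematopoietic cells. Its promoter, the AT-rich one with TATAAA printed above, carried 1.01 and 0.937 CPM of H3K4me3 in DMSO and 1.44 and 1.58 CPM in PR-957, on 39 to 48 counts per library. The PR-957 libraries were above the DMSO libraries (log2 fold change 0.64 ± 0.40, adjusted p = 0.785), and the confidence interval of 0.899- to 2.69-fold includes no change. H3K4me1 was broad there, on a 13.4-kb interval (chr15:79970257-79983701) that reaches from the start into the upstream flank. It held 42.5, 40.3, 40.8 and 40.9 CPM, with overlapping groups and a log2 fold change of −0.02 ± 0.12. H3K27ac was not listed within 2 kb of the start, and the nearest intervals began 5.45 to 6.11 kb upstream, inside this H3K4me1 domain. The strongest of those intervals held 12.4 and 10.9 CPM in DMSO and 11.2 and 12.3 CPM in PR-957.

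**Figure D3:**
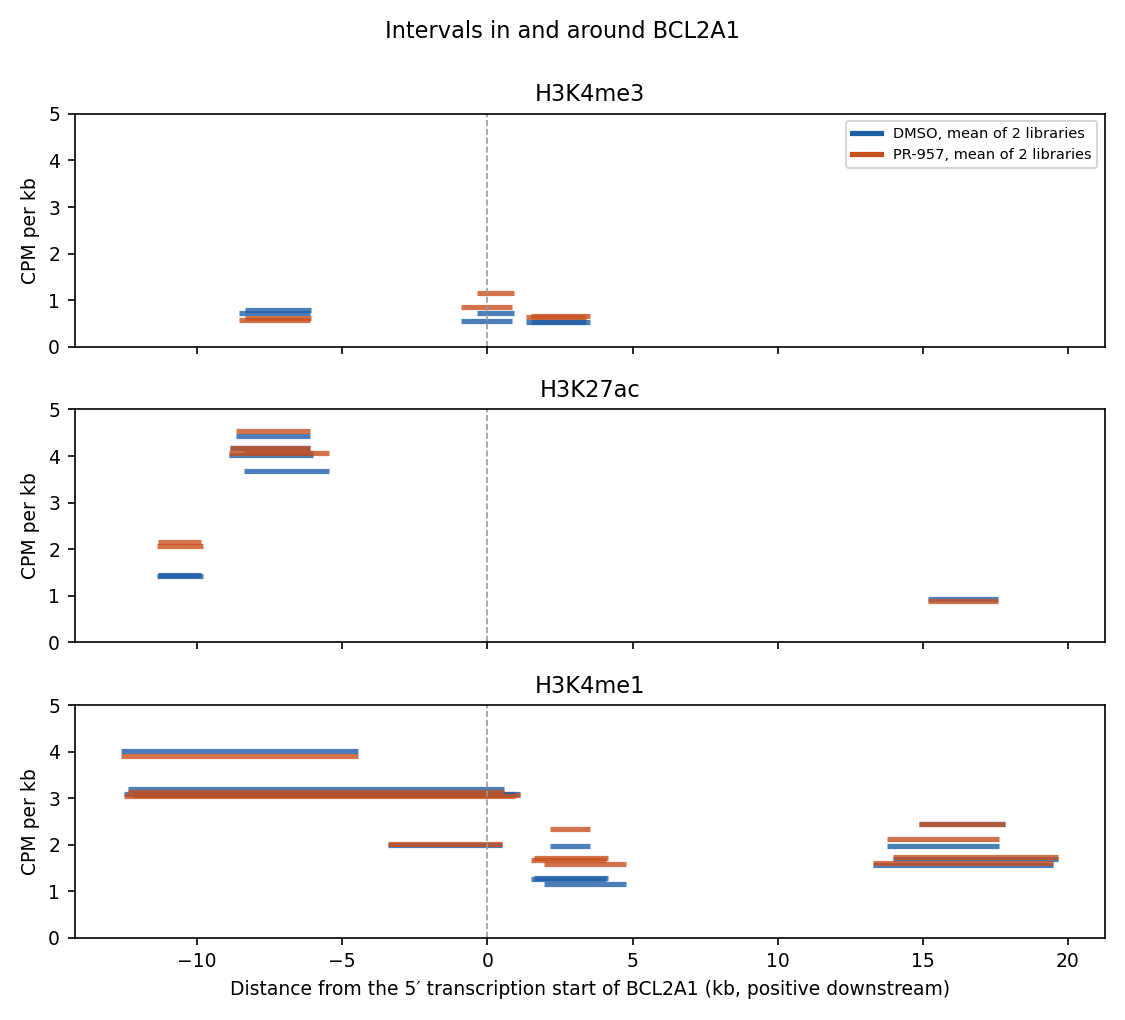
Intervals within 10 kb of BCL2A1, drawn from their first to their last base by distance from the 5′ start (horizontal axis, kb, positive downstream), at their level (vertical axis, CPM per kb, mean of 2 libraries; blue DMSO, orange PR-957). H3K27ac and the highest H3K4me1 lie upstream of the start, where H3K4me3 stays below 1 CPM per kb.

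The effectors BAX and BAK1 form the pores in the outer mitochondrial membrane. BAX H3K4me1 was counted on a 17.3-kb interval (chr19:48953984-48971330) that also holds the starts of FTL, which encodes the ferritin light chain, and GYS1, which encodes muscle glycogen synthase. It held 51.9 and 47.8 CPM in DMSO and 40.2 and 40.3 CPM in PR-957. The PR-957 libraries were both lower, with a log2 fold change of −0.31 ± 0.12, an unadjusted p of 0.0074 and an adjusted p of 0.131. The 3.31-kb interval over the BAX start alone held 3.49, 3.85, 2.82 and 2.52 CPM (log2 fold change −0.46 ± 0.26, adjusted p = 0.357), so most of the counts of the wide interval lie outside the BAX promoter. An interval over FTL alone, 38.8 and 32.8 CPM in DMSO against 29.4 and 30.0 CPM in PR-957, had a log2 fold change of −0.27.

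At the BAX promoter itself H3K27ac was 8.93 and 8.07 CPM in DMSO and 8.45 and 11.0 CPM in PR-957. H3K4me3 was 20.9 and 19.2 CPM in DMSO and 17.5 and 20.8 CPM in PR-957. The groups overlapped in both marks. BAK1 had overlapping groups in H3K27ac (19.3, 23.0, 20.9 and 20.1 CPM) and in H3K4me1 (7.93, 10.0, 10.4 and 7.31 CPM). Its H3K4me3 was 21.2 and 20.3 CPM in DMSO and 22.0 and 22.1 CPM in PR-957, which did not overlap, with a log2 fold change of 0.09 ± 0.08 and an adjusted p of 0.890.

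Of the BH3-only genes, BBC3 encodes PUMA, a p53 target that binds every guardian. Its H3K4me1 interval (chr19:47224571-47233956, 9.38 kb) held 17.1 and 18.2 CPM in DMSO and 11.0 and 14.7 CPM in PR-957. Both PR-957 libraries were below both DMSO libraries, and PR-957 replicate 1 was lowest. H3K4me1 fell by 0.44 ± 0.13 (SE) on the log2 scale, to 0.737-fold (95% confidence interval 0.621 to 0.873), with an adjusted p of 0.0335 in edgeR. The call was lost when either DMSO library was left out (adjusted p = 0.115 without replicate 1 and 0.191 without replicate 2). Leaving out PR-957 replicate 1 gave a log2 fold change of −0.27 (0.508), and leaving out PR-957 replicate 2 gave −0.68 (0.0129). It was also lost with DESeq2 (adjusted p = 0.561) and with offsets for GC content, which gave −0.32 (0.218). The interval held 59.9% G and C, percentile 94.6 of all H3K4me1 intervals, and PR-957 replicate 1 had the lowest H3K4me1 total, 15204186. The part of GC content and depth in the result was not tested beyond these fits.

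**Figure D4:**
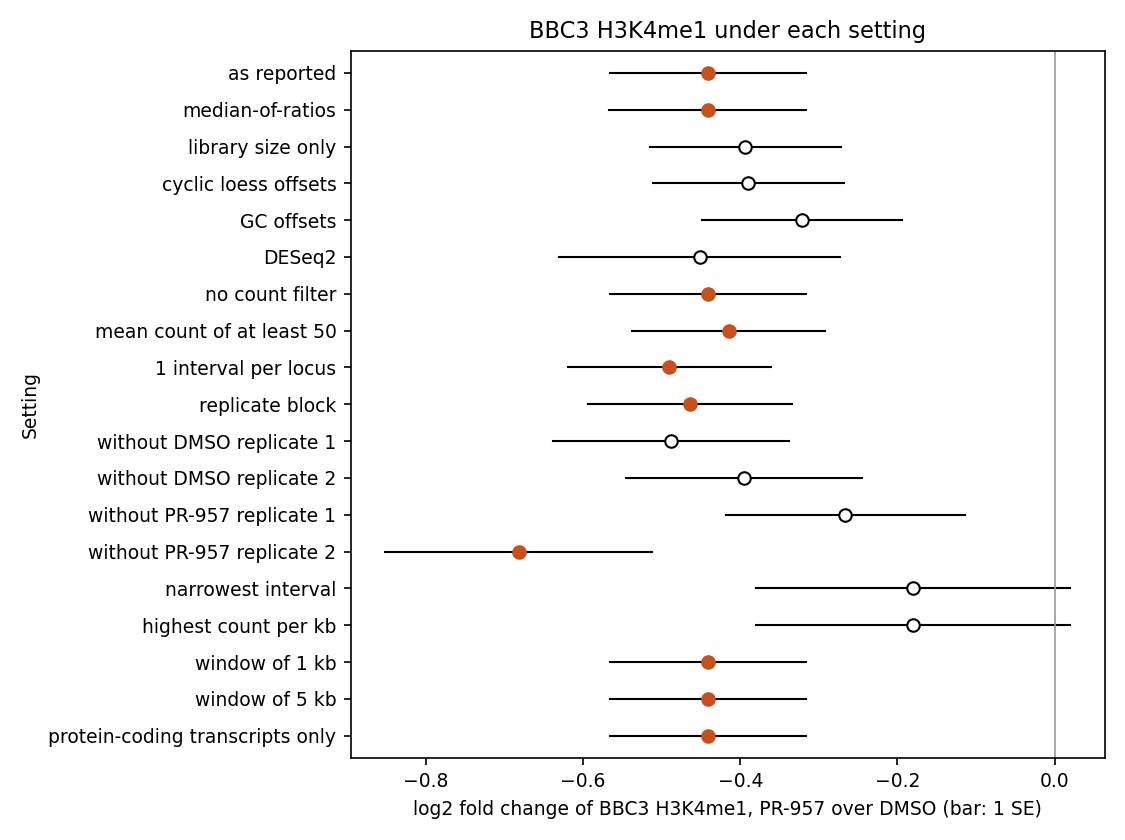
Log2 fold change of BBC3 H3K4me1 (horizontal axis, PR-957 over DMSO, bar of 1 SE) under the reported fit and 18 alternatives (vertical axis), filled in orange where the adjusted p was under 0.05. Every one lies below 0, from −0.68 to −0.18, and 8 of the 14 alternatives that keep all libraries pass. The window, transcript and interval choices are read from the reported fit and not fitted anew, so the alternatives are not separate checks.

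The H3K4me1 at BBC3 was listed as 6 intervals within the window, all with log2 fold changes below 0, of which 3 passed. They overlap and count the same fragments. Beside the widest, the second of 8.79 kb had a log2 fold change of −0.45 (adjusted p = 0.0289). The third (chr19:47224581-47229737, 5.16 kb), which starts 3.03 kb downstream of the 5′ start, held 10.7 and 11.5 CPM in DMSO and 7.38 and 8.26 CPM in PR-957, and fell by 0.49 ± 0.15 on the log2 scale (adjusted p = 0.0463). The widest and the second run across the 5′ start and contain the printed BBC3 sequence. A further pair of narrower intervals over the 5′ start, which also contain it, did not pass, with a log2 fold change of −0.25 on the 3.95-kb interval (adjusted p = 0.526) and −0.18 on the narrowest (adjusted p = 0.703). The narrowest held 4.98 and 5.44 CPM in DMSO and 3.34 and 5.61 CPM in PR-957. In both of these, PR-957 replicate 1 was lowest and replicate 2 was above both DMSO libraries. In a separate group of 4 intervals 5.80 to 7.62 kb upstream, the log2 fold changes were 0.01 to 0.17.

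**Figure D5:**
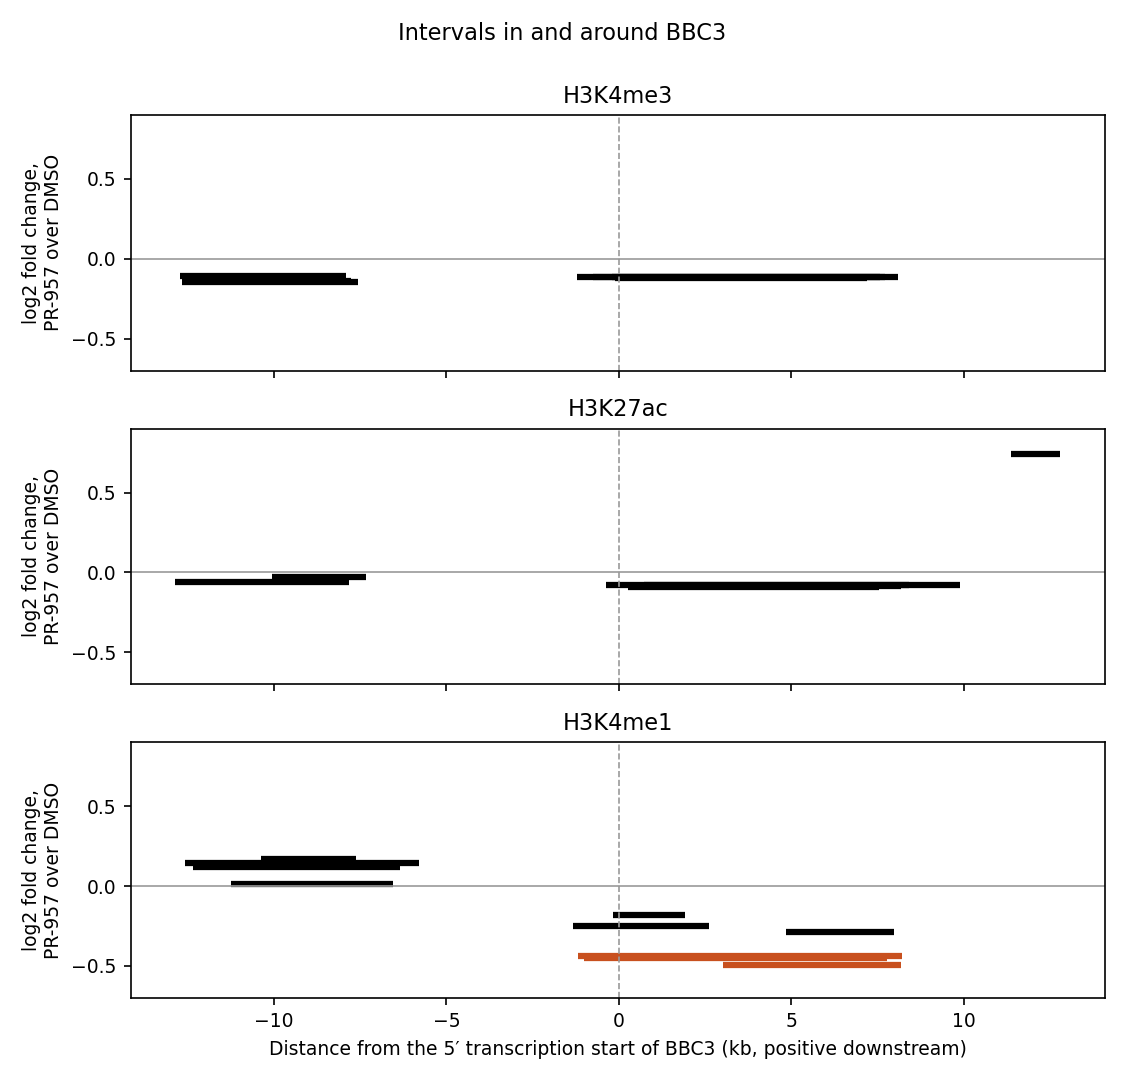
Intervals within 10 kb of BBC3 in 3 marks, drawn by distance from the 5′ start (horizontal axis, kb, positive downstream) at their log2 fold change of PR-957 over DMSO (vertical axis), orange for an adjusted p under 0.05. The 3 orange H3K4me1 intervals lie at −0.44 to −0.49, and 2 of them run from the gene body across the 5′ start and the third lies within the gene. H3K4me3 and H3K27ac over the same span lie near −0.1. Only 1 H3K27ac interval of BBC3 lies above 0, a narrow one at 0.74 ± 0.62 (SE; adjusted p = 0.842 in edgeR).

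H3K27ac and H3K4me3 over the same span of BBC3 were the highest or among the highest of the genes. H3K27ac was 109 and 104 CPM in DMSO and 98.8 and 103 CPM in PR-957, and did not overlap (log2 fold change −0.08 ± 0.06, adjusted p = 0.812). H3K4me3 was 93.4 and 94.1 CPM in DMSO and 84.1 and 89.2 CPM in PR-957, also without overlap (−0.11 ± 0.07, adjusted p = 0.755). The confidence intervals ran from 0.872- to 1.03-fold and from 0.844- to 1.01-fold, and the difference between the marks was not tested. The H3K27me3 intervals 4.88 kb upstream were the only ones of this mark near any of the genes. The strongest held 6.76 and 6.16 CPM in DMSO and 7.31 and 7.64 CPM in PR-957, and all 4 gave log2 fold changes of 0.20 to 0.24 with adjusted p-values of 0.702 to 0.773.

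BCL2L11 encodes BIM, which is kept low by growth factor signalling. Its H3K27ac, on a 7.05-kb interval, was 43.9 and 45.0 CPM in DMSO and 46.5 and 45.3 CPM in PR-957, without overlap but with a difference of 0.05 ± 0.09 on the log2 scale. H3K4me3 was 77.7, 76.7, 75.0 and 78.7 CPM, with overlapping groups and a confidence interval of 0.908- to 1.09-fold. H3K4me1 was 4.27 and 5.27 CPM in DMSO and 4.43 and 3.70 CPM in PR-957 and overlapped too (−0.24 ± 0.21).

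PMAIP1 encodes NOXA, which binds MCL1 and is itself turned over by the proteasome. At its GC-rich promoter H3K4me3 was 8.05 and 7.59 CPM per kb in DMSO and 7.88 and 7.89 CPM per kb in PR-957, the latter both inside the DMSO range. H3K27ac was 18.2 and 22.0 CPM in DMSO and 21.7 and 19.3 CPM in PR-957, also inside it. The log2 fold changes were 0.01 ± 0.08 and 0.03 ± 0.14. H3K4me1 was listed only from 4.05 kb downstream of the start, on 4 intervals with log2 fold changes above 0 (median 0.13, smallest adjusted p 0.631).

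BID encodes the protein that caspase 8 cleaves to link death receptors to mitochondria. Its H3K4me1 interval of 16.6 kb held 45.8 and 46.3 CPM in DMSO and 44.0 and 40.7 CPM in PR-957, without overlap (log2 fold change −0.12 ± 0.12, adjusted p = 0.642). H3K27ac was 35.8, 33.0, 35.7 and 37.0 CPM, and H3K4me3 was 42.7, 41.6, 40.9 and 46.5 CPM in the same order of libraries. Both overlapped between treatments.

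Over the whole genes with 10 kb on either side, the lists held 88 H3K27ac intervals in 32 separate loci, 164 H3K4me1 intervals in 45, 77 H3K4me3 intervals in 22 and 4 H3K27me3 intervals in 1. Beside the 3 H3K4me1 intervals of BBC3, 0 of these passed in edgeR. An unadjusted p under 0.05 in edgeR was reached by 6 of the H3K27ac, 15 of the H3K4me1, 8 of the H3K4me3 and 0 of the H3K27me3 intervals. Many of these intervals nest, so they are not separate results, and the share of all intervals under that p is not given here. In H3K27me3, 5.92% of all intervals passed. In BCL2, with 65 H3K4me1 intervals in 17 loci, 33 were above and 32 below 0 and the smallest adjusted p was 0.251. An H3K27ac interval 177 kb downstream of its 5′ start, inside the H3K4me1 interval described above, held 5.90 and 6.05 CPM in DMSO and 3.52 and 4.29 CPM in PR-957 (log2 fold change −0.60 ± 0.27, adjusted p = 0.535).

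A list of 45 other apoptosis genes, with an interval at 42 in H3K4me3, 39 in H3K27ac, 26 in H3K4me1 and 4 in H3K27me3, was read from the same fits. In H3K4me3, H3K27ac and H3K4me1, 0 passed, with medians of −0.04, 0.01 and −0.12 on the log2 scale. An unadjusted p under 0.05 in edgeR was reached by 7 of 42, 7 of 39 and 4 of 26 genes. The share of all genes under that p is not given here, so these counts cannot be read as an excess. Those with the smallest p were HTRA2 (a mitochondrial protease released with cytochrome c, −0.23, adjusted p = 0.191) and BNIP3 (a mitophagy receptor, 0.26, 0.204) in H3K4me3. In H3K27ac they were TRIB3, a stress-induced pseudokinase (−0.27, adjusted p = 0.495), and BNIP3L, a second mitophagy receptor (0.37, 0.499). In H3K4me1 they were ATF4, the transcription factor of the integrated stress response (−0.29, 0.175), and BMF, a BH3-only protein (−0.27, 0.250). The ATF4 interval in H3K4me1 holds 0 of its 9 annotated starts and holds a start of RPS19BP1, and the HTRA2 interval in H3K4me3 holds starts of AUP1 and DQX1 beside those of HTRA2.

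In H3K27me3, where 5.92% of all intervals passed, 1 of the 4 apoptosis genes with an interval fell, BAD, which encodes a BH3-only protein regulated by phosphorylation. Its interval of 17.0 kb lies within 2 kb of a BAD start but holds 0 of the 7 annotated BAD starts, and it holds starts of CATSPERZ, GPR137 and KCNK4, so the value is not one of the BAD promoter itself. The interval held 290 and 279 CPM in DMSO and 234 and 233 CPM in PR-957, without overlap, and fell by 0.28 ± 0.05 on the log2 scale (adjusted p = 1.37e-05 in edgeR). Scaled by library size alone the log2 fold change was −0.12 (adjusted p = 0.0829) and with cyclic loess offsets −0.13 (0.0632), and neither passed. The other 3, BOK, HRK and TP73, had log2 fold changes of −0.11 to −0.14 and did not pass.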

How the data were processed

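Counts from 16 Cut&Tag libraries of MOLM-13 cells (4 marks, 2 DMSO and 2 PR-957 libraries each) were used. Per the labels, the authors' processing used Trimmomatic 0.39, Bowtie2 2.2.5, Picard 2.27.1, SAMtools 1.7, SEACR 1.3 and deepTools 3.5.1 with hg38. The deposited values are raw counts on a list of intervals shared by the 4 libraries of a mark. The counter and the handling of duplicates are not given in the sources used here. Interval lists nest overlapping intervals, so a fragment can be counted more than once. Coordinates are as in the files.

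The filter was filterByExpr (minimum count 10), with TMM scaling, and edgeR 4.0.16 in R 4.3.3 gave the quasi-likelihood test, without the replicate number as a block. Benjamini-Hochberg adjustment was over all intervals of a mark, at 0.05. Start sites were those of all transcripts of a gene in GENCODE release 44, and distances run from the outermost start of the protein-coding transcripts. CPM uses the TMM-scaled total. Counts were also simulated with 200 intervals above a minimum mean count changed 2-fold. Each interval was drawn independently, although the listed intervals nest. Of the changed intervals, 63% were recovered in H3K27ac, 64% in H3K27me3, 69% in H3K4me1 and 88.5% in H3K4me3. The fitted changes at the intervals that represent the 10 genes were all smaller than 2-fold, and recovery of smaller changes was not simulated. Alternatives were DESeq2 1.42.0, scaling by library size alone or by median-of-ratios, cyclic loess and GC offsets, no filter, a mean count of at least 50, 1 interval per locus, the narrowest or densest interval, windows of 1 and 5 kb, protein-coding transcripts only, the replicate block and leaving out each library. All 10 genes were to be named, with their intervals past the threshold, and of the other apoptosis genes those past it or, where none passed, the 2 with the smallest p. The genes and lists were chosen with earlier results of these data known.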

Additional observations from a re-analysis of the deposited data

How the results depend on the processing

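In H3K4me3 and H3K27ac the count of BCL2 family genes called stayed at 0 under every alternative, and MCL1 H3K27ac kept its direction in all 18. DESeq2 gave some of the genes no adjusted p in these marks, so those genes could not pass there. The windows of 1 and 5 kb and protein-coding transcripts only pick an interval from the reported fit. For MCL1 H3K27ac they returned the reported value, so its direction could not differ there. The narrowest and densest intervals are also read from that fit. In H3K4me1 the count went from 1 to 0 with library size only, cyclic loess offsets, GC offsets, DESeq2, the narrowest interval and the highest count per kb, where the log2 fold change of BBC3 was −0.39, −0.39, −0.32, −0.45, −0.18 and −0.18. Leaving out a library gave 0 to 1 genes, 0 to 1 other intervals (2 as reported) and 0 to 1 other apoptosis genes (0 as reported). The count of other H3K4me1 intervals called was 1 with library size only or a mean count of at least 50, and 0 with cyclic loess offsets, GC offsets, DESeq2 and 1 interval per locus. The last tests fewer intervals, and the cause was not tested for the others. Over all H3K4me1 intervals, DESeq2 called 26 and the GC offsets 965, against 2099. The count of H3K27me3 apoptosis genes called was 1 as reported, 0 under library size only or cyclic loess offsets, and 2 with a window of 5 kb. In H3K27me3 as a whole, 262 intervals were higher and 1620 lower as reported, and 1521 and 698 with library size only. Of 502 values of the 28 gene and mark results under the alternatives, 34 had the opposite sign, for 16 results whose reported value did not pass. Not all of the 502 are refits, and some repeat the reported value. The labels do not say whether libraries with the same replicate number were handled as pairs. The correlation of the same-numbered libraries' deviations was −0.01, −0.01, 0.01 and 0.17 in H3K27ac, H3K27me3, H3K4me1 and H3K4me3. With 2 libraries per group, these values cannot decide whether the samples were paired. With the replicate block, the counts of genes called stayed at 0, 0 and 1, and BBC3 H3K4me1 had a log2 fold change of −0.46 (adjusted p = 0.0324). The block changed no call of the other apoptosis genes. Depth limits MCL1 in H3K4me1 and BCL2A1 in H3K4me3, which rest on 15 to 62 and 39 to 48 counts per library.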
